A study of Mus musculus with 8 samples.

Results

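The regions described here were marked for H2A.X in only 1 of a pair of domain lists of mouse embryonic stem (ES) cells. One list sets 2i medium against PKCi medium and the other sets 2i against SRCi medium. Each 1 kb bin of chromosomes 1 to 19 beyond the first 3 Mb was taken if it lay in a domain marked PKCi in the first list or SRCi in the second, but not in both. Adjacent bins of a class were merged, and stretches of 10 kb or more were kept. This gave 3329 regions, 1421 PKCi-only and 1908 SRCi-only, where the 6 deposited lists together hold 25499 domains. The regions were chosen by the marks of these lists, which are measured values, so their number, length and position are descriptions and carry no test.

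The series holds 8 samples of native chromatin immunoprecipitation with an antibody to H2A.X, 1 library per condition, and each list is made from a pair of libraries. Wild-type cells of the strain background labelled 129S6/C57B6 were grown in 2i, PKCi or SRCi medium, and DNMT1 knockout (KO) cells of the same background in serum. The TDG control, TDG knockdown (KD), TKO control and TKO samples carry the strain label 129/Ola and were grown in serum. The DNMT1 control and the wild-type cells in serum enter through the lists alone. TKO is used as labelled, and neither the clones behind each line nor the way of knockdown are given in the sources used here. PKCi medium held 5 µM Gö6976, an inhibitor of protein kinase C. SRCi medium held 1.5 µM CGP77675, an inhibitor of Src kinases, together with 3 µM CHIR99021, an inhibitor of GSK3, so these media differ by more than a single compound. Both were based on N2 and B27 supplements with LIF, with no serum listed, and the 2i medium was a commercial kit. No comparison here is backed by replicates, and the depth of the libraries is not known.

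H2A.X is a variant of histone H2A that sits in nucleosomes throughout the genome. It is best known for being phosphorylated around DNA double-strand breaks, where it helps to recruit repair proteins. The antibody used here was raised to H2A.X and is not labelled as specific for the phosphorylated form. Inhibition of MEK and GSK3 in 2i holds mouse ES cells in a naive state and lowers DNA methylation across the genome, while media built on inhibitors of protein kinase C or of Src are other ways to hold ES cells near that state. DNMT1 copies DNA methylation onto newly made strands, and TDG excises oxidised methylcytosine bases, so the other lists touch the same chemistry of DNA.

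Marks are relative to the rest of a list. The authors' signed score of a domain rises toward the first library named in its list, here 2i, and falls toward the second. The order was read from the names of the lists. Domains marked PKCi that carried a region had a median signed score of 5.35 (quartiles 4.84 and 5.74, 940 domains), and those marked SRCi had 6.13 (5.58 and 6.62, 1517 domains). These scores lean toward 2i, as did 2474 of 2491 autosomal PKCi domains and 3100 of 3124 SRCi domains. Domains marked 2i leaned farther, with medians of 15.1 against PKCi (669 domains) and 15.8 against SRCi (559 domains). A PKCi or SRCi mark thus names a place where the lean toward 2i was smaller than in domains marked 2i. Just 2 member regions lay in a domain with a score below 0, and both are SRCi-only regions on chromosome 13.

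Disagreement between the PKCi and SRCi lists was a small part of the grid. Of 2415 Mb of autosomal bins, 1740 Mb (72.0%) were marked in both lists and 494 Mb (20.5%) in neither. PKCi-only bins of any length made up 71.5 Mb and SRCi-only bins 110 Mb. The PKCi mark as a whole covered 75.0% of bins and the SRCi mark 76.6%. After the length rule, PKCi-only regions held 69.3 Mb (2.87% of autosomal bins) and SRCi-only regions 106.5 Mb (4.41%). The rule set aside 590 shorter PKCi-only stretches (2.17 Mb) and 812 shorter SRCi-only stretches (3.26 Mb). At the limit there were 32 PKCi-only stretches of 9 kb and 28 of 10 kb, against 61 and 61 SRCi-only stretches.

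Almost no region traded the mark for its opposite. In the SRCi list, 99.96% of the bases of PKCi-only regions lay in no domain, and in the PKCi list 99.98% of those of SRCi-only regions did. Of the PKCi-only regions, 1416 of 1421 held no base marked 2i against SRCi (99.6%, Wilson 95% interval 99.2% to 99.8%). Of the SRCi-only regions, 1907 of 1908 held none against PKCi (99.9%, 99.7% to 99.99%). The 2i mark covered 6.53% of all autosomal bins against PKCi and 7.28% against SRCi, but most of that lies on chromosomes 6 and 8, which hold almost no regions. Without them it covered 0.288% and 0.296% of bins, so a 2i mark was rare on the chromosomes that hold the regions. A region therefore marks a place that 1 medium's list called and the other left uncalled. No list sets PKCi against SRCi, and values of uncalled stretches are not given. Whether H2A.X itself differed there between the media was not tested. These intervals and those below cover counting error alone, and regions within a domain or chromosome are not independent.

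PKCi-only regions were mostly holes in the SRCi mark, and SRCi-only regions were mostly margins. Of the PKCi-only regions, 909 (64.0%, interval 61.4% to 66.4%) had bins marked in both lists on either side, 480 (33.8%) adjoined such bins on 1 side, and 31 (2.18%) stood apart. Of the SRCi-only regions, 489 (25.6%, interval 23.7% to 27.6%) lay inside a shared stretch, 1212 (63.5%) lay at an edge and 205 (10.7%) stood apart. The remaining 1 and 2 regions ran to the limit of a chromosome. No region of either class directly adjoined the other class. The shared stretches had 3909 outer limits that could be compared. Both lists placed 865 (22.1%) of these in the same 1 kb bin. The SRCi mark reached farther at 2010 (51.4%), by a median of 14 kb, and the PKCi mark at 1034 (26.5%), by a median of 8 kb.

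Lengths overlapped widely between the classes. PKCi-only regions had a median of 36 kb (quartiles 20 and 61 kb) and reached 503 kb, and SRCi-only regions had a median of 42 kb (22 and 70 kb) and reached 414 kb. A length of 100 kb or more was seen in 151 PKCi-only and 256 SRCi-only regions. Holes in the other medium's mark were longer than margins in both classes, with medians of 40 kb against 27 kb for PKCi-only and 60 kb against 31 kb for SRCi-only regions. The carrying PKCi domains were long, at a median of 754 kb against 300 kb for PKCi domains with no region, and 1 of them held 12 regions. The carrying SRCi domains had a median of 404 kb against 290 kb and held at most 4. A longer domain has more room for a region, and no test was made of this difference.

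**Figure D1:**
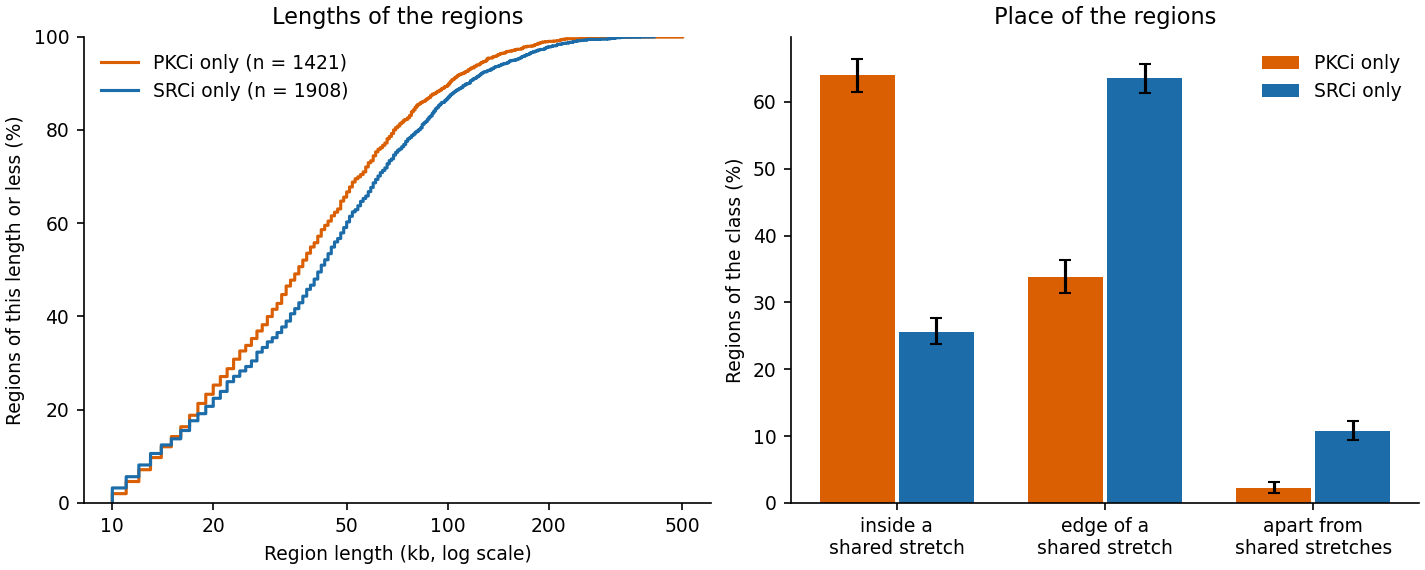
Left, cumulative share of regions (%) by length (kb, log axis) for PKCi-only and SRCi-only regions; right, share of each class (%) by place, with Wilson 95% intervals as error bars. The length curves lie close together, while 64.0% of PKCi-only but 25.6% of SRCi-only regions lie inside a stretch marked in both lists.

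The authors' second score, at most 1 per bin, was lower in the domains that stood alone. The 205 lone SRCi domains had a median of 0.792 per bin against 0.866 over all autosomal SRCi domains. The 31 lone PKCi domains had 0.718 against 0.877. PKCi domains that carried a region had 0.838, and those that carried none had 0.900. For SRCi domains these medians were 0.862 and 0.871. What this score measures is not stated in the lists, and these are scores of whole domains and not of the regions within them.

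By chromosome, SRCi-only bases exceeded PKCi-only bases on 19 of 19 autosomes. Outside chromosomes 6 and 8, PKCi-only regions covered 2.14% to 4.50% of a chromosome (median 3.03%) and SRCi-only regions 2.95% to 9.88% (median 4.97%). Chromosome 19 had the highest SRCi-only share, at 9.88% in 84 regions, against 3.93% PKCi-only in 48. Chromosome 15 had nearly equal shares, at 3.64% and 3.60%. Chromosomes 6 and 8 held almost none. Chromosome 6 had no PKCi-only and 9 SRCi-only regions, and chromosome 8 had 4 and 8. On those chromosomes 99.5% and 96.0% of bins were marked in neither list, and the 2i mark covered 52.1% and 58.4% of bins against PKCi.

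**Figure D2:**
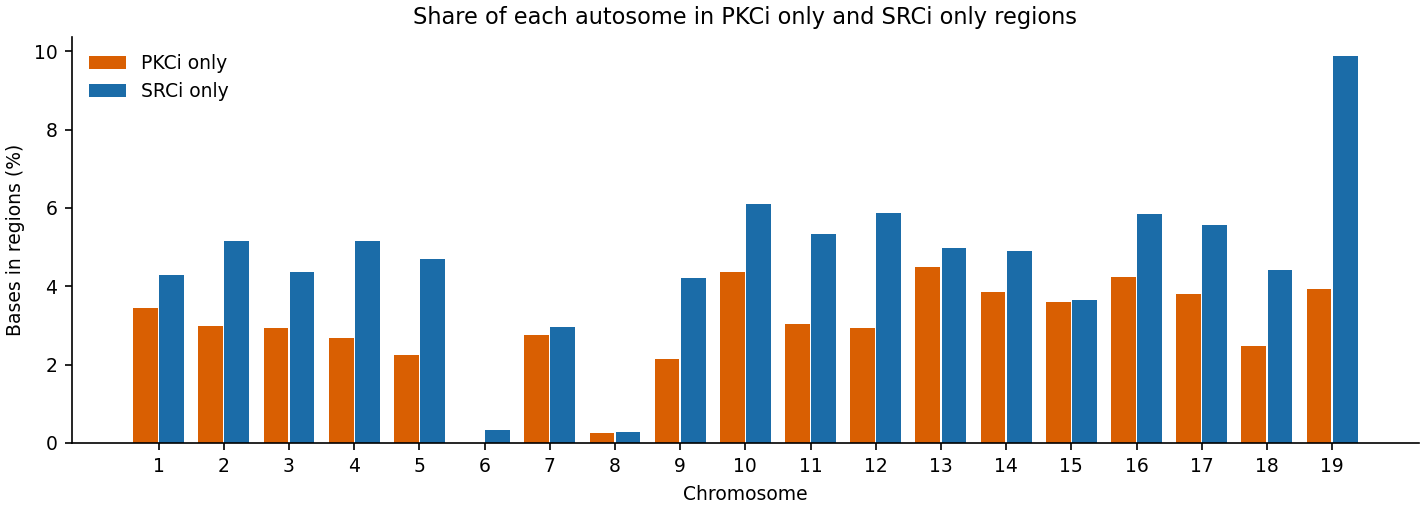
Share of the bins of each autosome beyond its first 3 Mb (%) that lies in PKCi-only and SRCi-only regions, 1 bar per class. SRCi-only bars stand higher on every autosome, reach 9.88% on chromosome 19, and both classes nearly vanish on chromosomes 6 and 8.

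The 17 other autosomes were each cut into 10 equal parts from the centromere side. SRCi-only shares ran from 3.64% in part 2 to 6.62% in part 8 and were 4.20% in part 10. PKCi-only shares lay between 2.35% and 4.06%. In the last 5 Mb of these chromosomes PKCi-only regions covered 4.22% of bins, against 3.22% over their whole length. SRCi-only regions there covered 4.82% against 4.93%. SRCi-only regions lay closer to their own kind, with a median of 207 kb to the nearest other SRCi-only region, against 379 kb between PKCi-only regions. There are more SRCi-only regions, which shortens such distances by itself. The nearest region of the other class was a median of 416 kb from a PKCi-only and 578 kb from an SRCi-only region.

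The longest PKCi-only region was chromosome 19, 15188001 to 15691000 (mm9, as all positions here), at 503 kb. It was a hole in the SRCi mark inside a PKCi domain with a signed score of 5.73. The TKO control side covered 93.0% of it and the DNMT1 control side 32.2%. Next in length were 349 kb on chromosome 15, 53358001 to 53707000, and 311 kb on chromosome 13, 20373001 to 20684000. Neither held a base of any domain in the other 4 lists. Chromosome 10, 78549001 to 78851000, at 302 kb, differed from these in that the DNMT1 KO side covered 65.6% of it and the 2i side over serum 26.8%. Chromosome 13, 68222001 to 68484000, at 262 kb, stood apart from shared stretches, and its domain had a second score of 0.326 per bin. It held bases on the TKO side (29.0%), the DNMT1 KO side (26.7%), the 2i side over serum (15.6%) and the TDG control side (6.49%). None of these positions was annotated with genes here.

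The 5 longest SRCi-only regions lay mostly or wholly on the DNMT1 control side, which covered 45.4% of all autosomal bins. The longest, chromosome 19, 17789001 to 18203000, at 414 kb, was a lone SRCi domain with a signed score of 7.44. The DNMT1 control side covered all of it and the TKO control side 68.4%. Chromosome 5, 49207001 to 49581000, at 374 kb, was covered to 82.4% and 72.7% by these sides. Chromosome 12, 61153001 to 61485000, at 332 kb, lay wholly in both. A stretch of 327 kb on chromosome 13, 87217001 to 87544000, and 317 kb of chromosome 14, 94469001 to 94786000, lay wholly in the DNMT1 control side and met no TKO domain. These 5 differ from the bulk of SRCi-only regions. The DNMT1 control side covered 34.3% of bases in SRCi-only regions of 100 kb or more and 14.5% in those of 10 to 19 kb. PKCi-only regions of 100 kb or more had 35.4%. The share in long regions was thus alike in both classes and below that of all bins.

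The regions were then followed through the other 4 lists. A region is counted on a side when at least 50% of its bases lie there, and shares of bases are given beside the share of all bins. The list of serum against 2i also names 2i, a condition that the choice of regions used. The DNMT1, TDG and TKO lists name no condition used in that choice. Regions were also rebuilt from the 50% of domains on each side of the lists used in the choice with the highest score toward that side. This gave 449 PKCi-only and 1236 SRCi-only regions, and their shares are given below where they changed the picture. Such regions can take in bins that both full lists marked, since lower-scoring domains of the opposite list are dropped. They held 89.5 Mb and 260.2 Mb, more than the 71.5 Mb and 110 Mb of PKCi-only and SRCi-only bins in the full lists. Shares under this setting are thus partly of other bins.

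With all domains used, both classes were nearly free of the serum mark. Just 9 of 1421 PKCi-only regions (0.633%) and 20 of 1908 SRCi-only regions (1.05%) lay on the serum side, which covered 29.9% of all autosomal bins. Without chromosomes 6 and 8, the serum side covered 0.540% of PKCi-only bases and 1.44% of SRCi-only bases. It covered 41.3% of bins marked in both lists and 0.123% of bins marked in neither. On the serum mark the regions thus resembled bins outside both marks. At the centre of the regions 0.6% and 1.4% were marked serum, and at a distance of 100 kb on the proximal side 17.9% and 29.2% were. It depended on which domains were used. With the highest-scoring 50% of domains the serum side held 16.3% of PKCi-only and 11.7% of SRCi-only regions, in the reverse order. The serum mark shares 2i with the rule and is no separate evidence on PKCi or SRCi.

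The order of the classes on the 2i mark over serum turned with the choice of domains. With all domains it held 123 PKCi-only regions (8.66%, interval 7.30% to 10.2%) and 108 SRCi-only regions (5.66%, 4.71% to 6.79%), against 12.1% of all autosomal bins. Much of that background lies on chromosomes 6 and 8. Without them the 2i side covered 10.3% of PKCi-only bases, 6.28% of SRCi-only bases, 4.93% of all bins, 0.655% of bins marked in both lists and 35.6% of bins marked in neither. PKCi-only exceeded SRCi-only on 15 of the 17 chromosomes. With the highest-scoring 50% of domains the shares were 3.34% of PKCi-only and 4.69% of SRCi-only regions. With all domains, the 2i mark was laid out differently around the classes. Around PKCi-only regions it had a narrow peak, covering 11.997% of region centres, 7.27% of places 30 kb to the proximal side and 5.50% at 100 kb. Around SRCi-only regions it dipped to 7.77% at the centre between shoulders of 12.6% and 12.2% at 30 kb on the proximal and distal sides. The 2i domains that met PKCi-only regions were short (median 9 kb, where the median of all autosomal 2i domains over serum is 14 kb). At 1 base or more, 561 PKCi-only (39.5%) and 500 SRCi-only regions (26.2%) met a 2i domain. Shares of 1 kb bins are no background for these counts, and other stretches of like length were not counted. The longest PKCi-only region on this side was chromosome 17, 38323001 to 38434000, at 111 kb, with 75.7% of its bases marked 2i.

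DNMT1 KO marks were more common in SRCi-only than in PKCi-only regions. They held 261 SRCi-only regions (13.7%, interval 12.2% to 15.3%) and 62 PKCi-only regions (4.36%, 3.42% to 5.55%), where the KO side covered 3.67% of all autosomal bins. With the highest-scoring 50% of domains the shares were 14.2% and 8.02%. By bases, without chromosomes 6 and 8, the KO side covered 11.4% of SRCi-only regions, 4.10% of PKCi-only regions, 0.892% of bins marked in both lists and 21.8% of bins marked in neither. PKCi-only regions thus lay near the background. SRCi-only exceeded PKCi-only on 15 of 17 chromosomes, the exceptions being chromosomes 3 and 10. The highest SRCi-only shares were on chromosome 11 (22.0%) and chromosome 9 (19.96%), where PKCi-only regions had 7.42% and 2.20%. Chromosome 19, richest in SRCi-only bases, had 2.85%.

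The gap was also read within each kind of place. Among holes inside shared stretches, the KO side covered 10.99% of SRCi-only and 2.48% of PKCi-only bases. Among margins the values were 11.1% and 6.40%. Among regions that stood apart they were 12.7% in 205 SRCi-only and 16.98% in 31 PKCi-only regions, the reverse order. By length, the KO side covered 15.4% of SRCi-only and 3.93% of PKCi-only bases at 10 to 19 kb. At 100 kb or more it covered 5.97% and 3.33%, so the gap was small in the longest regions. Around SRCi-only regions the KO mark peaked at the centre, at 14.4%, and was 8.3% and 7.6% at 100 kb on the proximal and distal sides and 5.2% and 4.9% at 500 kb. Around PKCi-only regions it ran between 3.0% and 4.3% at every 100 kb step. The KO side has 1470 autosomal domains. Of these, 405 (27.6%) met an SRCi-only region and 102 (6.94%) a PKCi-only region. SRCi-only regions are more numerous and cover more bases, which raises such a count by itself. The median signed scores of the KO domains met, -6.37 and -6.60, were close to that of all KO domains, -6.56.

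In the surroundings within 30 kb, on the 17 autosomes, the DNMT1 KO and 2i shares of margins lay between those of their neighbours. In SRCi-only margins the KO side covered 11.1% of bases, against 3.53% in the flank marked in both lists and 23.2% in the flank marked in neither. The 2i side over serum gave 5.24%, 0.579% and 34.3% in the same order. In PKCi-only margins the KO side covered 6.45%, against 2.74% and 12.6%, and the 2i side 6.44%, against 0.735% and 28.5%. This did not hold on every side. PKCi-only margins had 13.6% TDG KD bases, below both flanks (17.5% and 13.9%), and SRCi-only margins had 19.1% TKO control bases, above both (18.3% and 17.4%). On the DNMT1 KO and 2i sides, holes lay above their shared flanks. SRCi-only holes had 10.99% KO bases against 2.30% in their shared flanks, and 7.72% 2i bases against 0.335%. PKCi-only holes had 2.48% KO bases against 1.47%, and 11.9% 2i bases against 1.02%. TKO control bases were nearly equal inside holes and in their flanks, at 23.6% and 23.5% for SRCi-only and 30.7% and 31.3% for PKCi-only regions. The DNMT1 control shares were also close, at 27.4% and 30.5% and at 40.6% and 42.6%.

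The DNMT1 control mark ran the other way. It held 480 PKCi-only regions (33.8%, interval 31.4% to 36.3%) and 371 SRCi-only regions (19.4%, 17.7% to 21.3%), against 45.4% of all autosomal bins. With the highest-scoring 50% of domains the gap was small, at 17.6% and 15.6%. Without chromosomes 6 and 8 it covered 34.8% of PKCi-only bases, 24.7% of SRCi-only bases, 51.8% of bins marked in both lists and 9.29% of bins marked in neither. Over all autosomes, the control side covered 40.6% of PKCi-only and 27.4% of SRCi-only bases in holes, and 25.3% and 23.2% in margins. Among regions that stood apart the order was reversed, at 6.45% and 25.5%. By length, the shares were 32.3% and 14.5% at 10 to 19 kb and 35.4% and 34.3% at 100 kb or more. The gap thus lay mainly in holes and in shorter regions. PKCi-only exceeded SRCi-only on 15 of 17 chromosomes, with chromosomes 13 and 19 the exceptions. On chromosome 19 the control side covered 52.0% of SRCi-only and 38.1% of PKCi-only bases. Both classes sat in a dip of this mark. It fell to 18.98% at the centre of SRCi-only regions from 39.1% at 500 kb on the proximal side, and to 33.8% from 42.4% for PKCi-only regions.

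**Figure D3:**
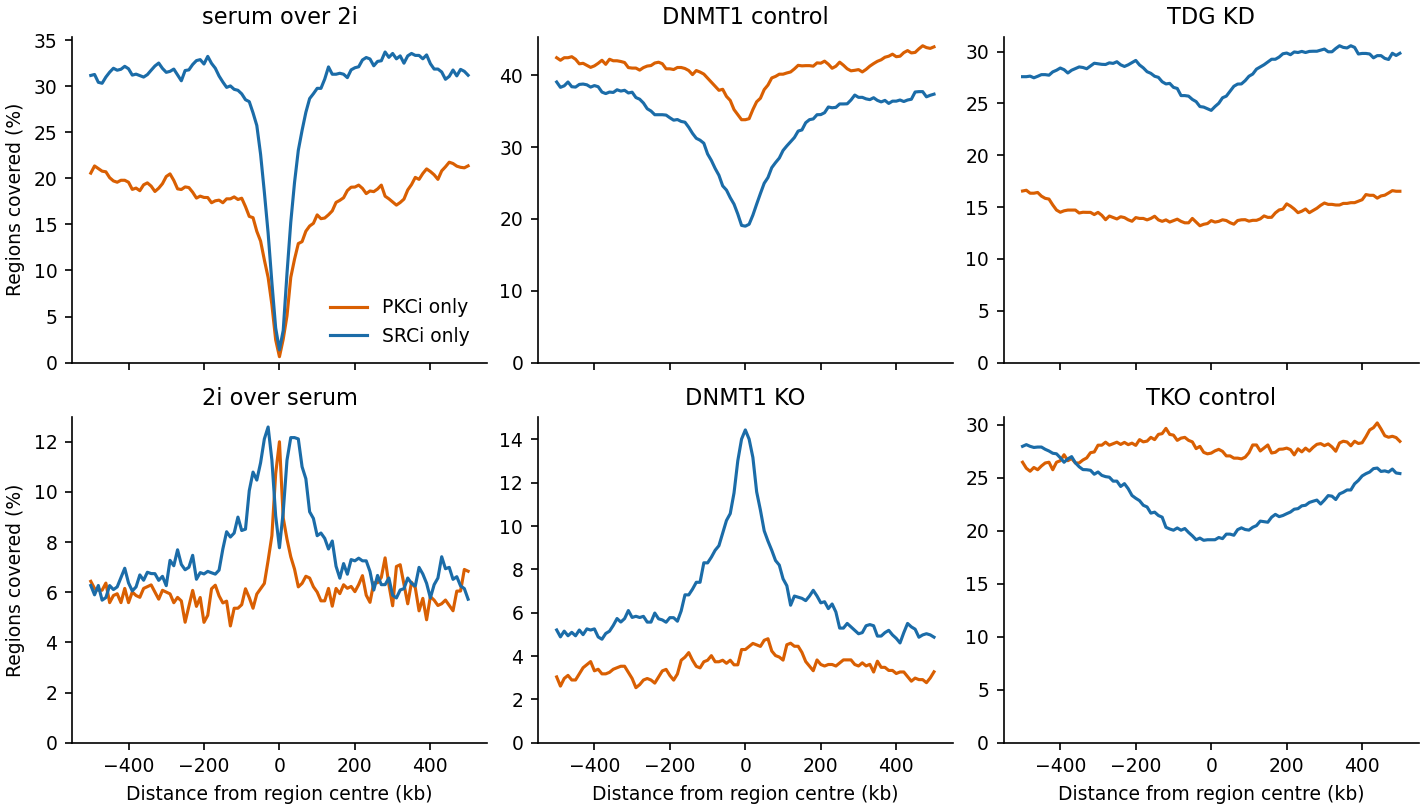
Share of regions (%) covered by each side against distance from the region centre (kb; negative toward the centromere side), for PKCi-only and SRCi-only regions on 17 autosomes. The serum mark drops to near 0 at the centre in both classes, the DNMT1 KO mark peaks at 14.4% in SRCi-only regions, and the TDG KD curves stay apart over the whole window.

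TDG KD marks held 474 SRCi-only regions (24.8%, interval 23.0% to 26.8%) and 197 PKCi-only regions (13.9%, 12.2% to 15.8%), against 30.8% of all autosomal bins. This gap was absent in regions rebuilt from the highest-scoring 50% of domains, which partly hold other bins. Their shares were 31.0% of SRCi-only and 30.7% of PKCi-only regions. The values that follow are with all domains. Without chromosomes 6 and 8 the KD side covered 22.6% of SRCi-only bases, 11.3% of PKCi-only bases, 33.4% of bins marked in both lists and 11.6% of bins marked in neither. SRCi-only exceeded PKCi-only on 17 of 17 chromosomes. PKCi-only regions lay below all bins on 17 of 17 and SRCi-only regions on 15. The gap between the classes spanned the wider surroundings. KD marks covered 24.3% of SRCi-only centres and 27.6% of places 500 kb to the proximal side, and 13.7% and 16.5% for PKCi-only regions. The KD domains that met a region were long, with medians of 865 kb and 803 kb against 483 kb for all autosomal KD domains. The longest SRCi-only region on this side was chromosome 1, 34046001 to 34358000, at 312 kb, covered to 93.9%. The longest PKCi-only region was chromosome 1, 170057001 to 170274000, at 217 kb, covered wholly by the TDG KD and DNMT1 control sides.

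**Figure D4:**
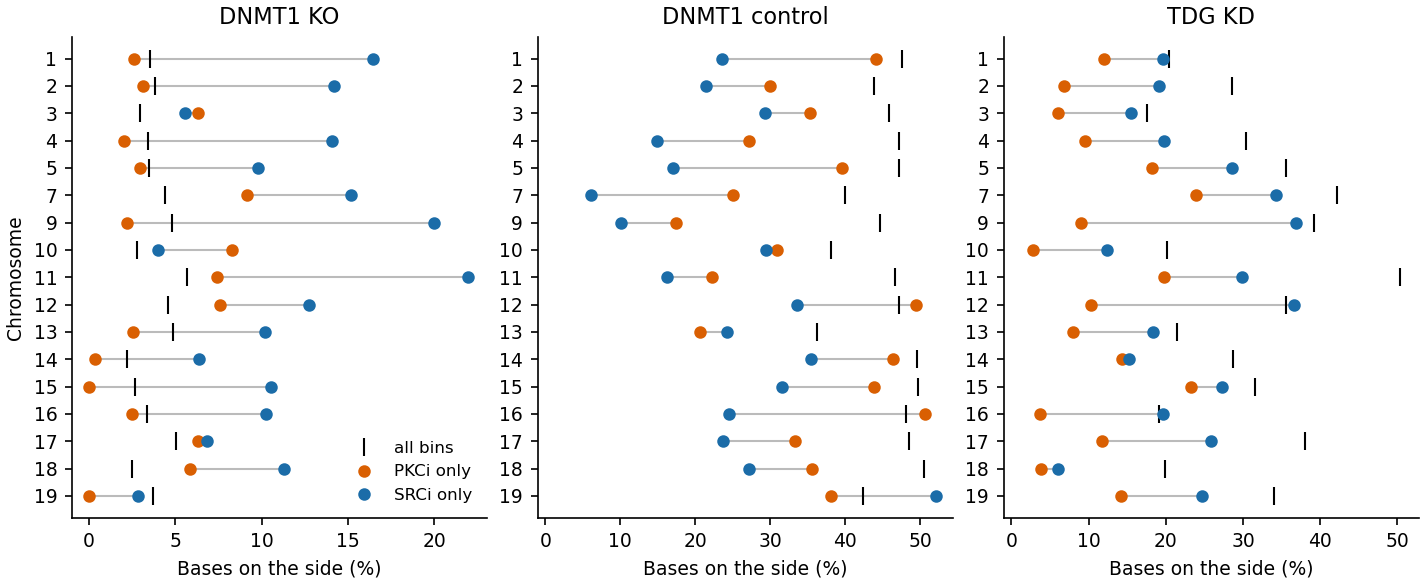
Share of bases (%) on the DNMT1 KO, DNMT1 control and TDG KD sides for each of 17 autosomes, as points for PKCi-only and SRCi-only regions and a tick for all bins. SRCi-only points lie to the right for DNMT1 KO on 15 and for TDG KD on 17 chromosomes, and to the left for DNMT1 control on 15.

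In the TKO list the control side held 386 PKCi-only regions (27.2%, interval 24.9% to 29.5%) and 366 SRCi-only regions (19.2%, 17.5% to 21.0%), against 28.8% of all autosomal bins. PKCi-only regions thus lay near the background and SRCi-only regions below it. Chromosome 11 is covered almost wholly by this side, and without it the shares were 22.9% and 14.4%, against 25.2% of bins. The order turned with the highest-scoring 50% of domains, to 15.8% of PKCi-only and 17.4% of SRCi-only regions. With all domains it was also reversed on the DNMT1 control side, at 37.1% of PKCi-only and 42.1% of SRCi-only bases. In no DNMT1 domain the shares of bases were 22.7% and 15.0%, and on the DNMT1 KO side 22.6% and 14.1%. TKO marks covered 0.409% of all bins and held 9 PKCi-only regions (0.633%) and 10 SRCi-only regions (0.524%). By bases they covered 0.833% of PKCi-only and 0.554% of SRCi-only regions. TDG control marks covered 0.277% of all bins and held 4 PKCi-only regions (0.281%) and 7 SRCi-only regions (0.367%). By bases they covered 0.525% of PKCi-only and 0.270% of SRCi-only regions, the reverse order. TKO and TDG control domains were short (medians of 16 kb and 6 kb), which limits how many regions can reach 50%. Counts this small give no order of the classes, and the difference was not tested. The longest regions on the TKO side, both covered wholly, were an SRCi-only region of 88 kb (chromosome 13, 61822001 to 61910000) and a PKCi-only region of 41 kb (chromosome 7, 113379001 to 113420000).

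**Figure D5:**
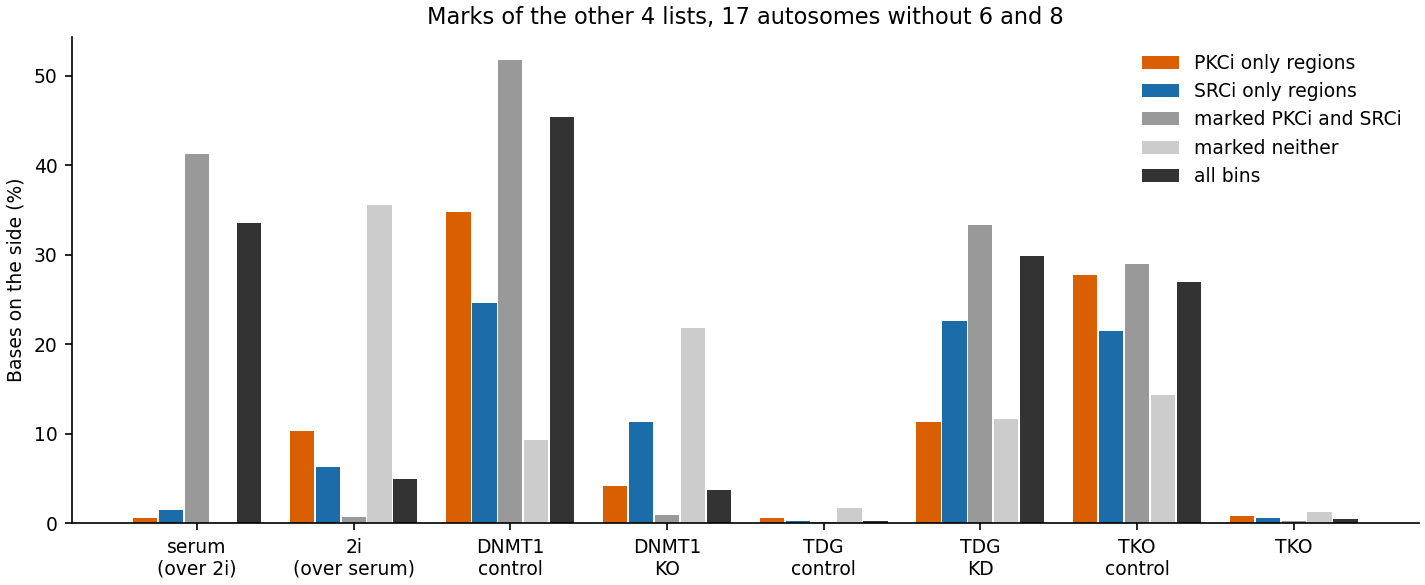
Share of bases (%) on each side of the other 4 lists, on 17 autosomes, in PKCi-only regions, SRCi-only regions, bins marked in both lists, bins marked in neither and all bins. Both classes have almost no serum mark, and SRCi-only regions have 11.4% DNMT1 KO bases against 4.10% in PKCi-only regions.

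Across the 4 lists taken jointly, the commonest state was no domain at all. It was the leading state of 526 PKCi-only regions (37.0%) and 742 SRCi-only regions (38.9%), against 20.1% of all autosomal bins. The next states differed between the classes. For PKCi-only regions they were DNMT1 control alone (237 regions, 16.7%), DNMT1 control with TKO control (157, 11.05%), TKO control alone (149, 10.5%) and TDG KD alone (106, 7.46%). For SRCi-only regions TDG KD alone came next (293, 15.4%), then DNMT1 control alone (169, 8.86%), DNMT1 KO alone (142, 7.44%) and DNMT1 control with TKO control (135, 7.08%). DNMT1 KO alone was the leading state of 27 PKCi-only regions (1.90%). In all bins, DNMT1 control alone took 12.5%, DNMT1 control with TKO control 8.35%, TKO control alone 5.95%, TDG KD alone 4.28% and DNMT1 KO alone 1.16%. Every state named here lacks a serum or 2i mark, and the list of serum against 2i shares 2i with the rule. That list left 89.1% of PKCi-only and 92.3% of SRCi-only bases in no domain, against 58.0% of all bins. This alone can raise the shares of these states in regions over those in all bins. The gaps to all bins are thus no separate evidence on the DNMT1, TDG and TKO lists.

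DNMT1 KO bases and 2i bases met across the genome. Within the regions a smaller share of KO bases was marked 2i. This is no separate evidence, since the regions were chosen from lists that name 2i. On the 17 autosomes, 48.9 of 79.9 Mb of KO bases lay in bins marked in neither list. The 2i side over serum covered 35.6% of such bins. Over all bins of the 17 autosomes, the 2i mark over serum covered 43.5% of those on the DNMT1 KO side, 5.53% of those in no DNMT1 domain and 1.09% of those on the control side. The values for regions are over all 19 autosomes, though chromosomes 6 and 8 hold almost none of the regions. In SRCi-only regions the 2i mark over serum covered 19.96% of the 12 Mb on the KO side. It covered 5.07% of the 67.9 Mb in no DNMT1 domain and 3.02% of the 26.6 Mb on the control side. In PKCi-only regions it covered 24.3% of 2.83 Mb, 10.7% of 42.2 Mb and 7.73% of 24.2 Mb. Off the KO side, PKCi-only shares lay above those of all bins of the 17 autosomes. SRCi-only shares did so on the control side alone. An example of 2i and KO marks together is chromosome 7, 97270001 to 97365000, the longest SRCi-only region on the 2i side over serum, at 95 kb. The 2i side covered 67.4% of it and the DNMT1 KO side 69.5%. The longest SRCi-only region on the KO side was chromosome 11, 86438001 to 86620000, at 182 kb, covered to 97.3% by KO and 20.9% by 2i. Chromosome 14, 27731001 to 27782000, SRCi-only at 51 kb, had 94.1% 2i, 76.5% DNMT1 KO and 54.9% TDG control bases. The PKCi-only counterpart on the TDG control side, chromosome 12, 25041001 to 25142000, at 101 kb, had 52.5% TDG control and 48.5% DNMT1 KO bases.

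A single member region showed an outright opposite mark with a score below 0, on chromosome 13, 66519001 to 66536000. This 17 kb SRCi-only region lay in a domain with the same edges in all 3 lists that name 2i. Its signed score was -37.1 in the SRCi list, toward SRCi and the lowest of the 3124 autosomal SRCi domains. It was 13.9 in the PKCi list, where it is marked 2i, and -30.7 against serum, also marked 2i. Within each list, the score there leaned to SRCi against 2i, to 2i against PKCi and to 2i against serum. The lists have no stated common scale, so these scores give no order of the media. A lean to 2i was not particular to this place. Of 2491 autosomal PKCi domains, 2474 scored above 0, and autosomal domains marked serum had a median of -7.58, toward 2i. Of the 17 autosomal SRCi domains with a score below 0, 7 lay between 65630001 and 66707000 on this chromosome. They include the other SRCi-only region with such a score, 66647001 to 66707000, at 60 kb and -4.62. The nearby domain 66594001 to 66599000 had -8.38 in the SRCi list, 25.1 in the PKCi list and -41.9 against serum, but is too short to count as a region. The PKCi-only region with an opposite mark over its whole length was chromosome 18, 3576001 to 3589000, at 13 kb, which has a score of 19.3 toward 2i in the SRCi list and lies in a PKCi domain with 4.88. It too was marked 2i against serum, with -25.8. These places were chosen partly after their values were seen, and whether repeated sequence gives such scores was not tested.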

How the data were processed

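H2A.X was precipitated from nuclease-digested ES cell chromatin with 0.5 µg of antibody per sample, per the labels' protocols. Per the submitters' processing notes, the aligner was Bowtie2 (2.0.6) and the build mm9. How domains were called and scaled is not given in the sources used here. The deposited lists give 2 columns of the authors' own scores per domain, with no unit stated, and these were used only to describe domains within a list. Domains were laid on a 1 kb grid with Python 3.11.15 and numpy 2.4.6, and the region rule was tested on simulated data. Intervals are Wilson 95% intervals from scipy 1.17.1. With 1 library per condition and members chosen from the marks, no test was made and no p-value is given. The members, the lists and the named regions were chosen with earlier results of these data known. Named regions are the 5 longest of each class, the longest of each class on each side of the other 4 lists, and the longest marked 2i in the opposite list. Genes and sequences are not given, since no mm9 annotation or genome was used here.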

Additional observations from a re-analysis of the deposited data

Results flagged for a closer look

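Chromosome X lies outside the regions described above. By the same rule it held 21 PKCi-only regions (0.756 Mb, 0.462% of its bins, median 25 kb) and 10 SRCi-only regions (0.458 Mb, 0.280%, median 33.5 kb), so the order of the classes there was the reverse of that on the autosomes. They are given because the rule leaves X out, and nothing made 0 the number to be found there. The difference was not tested.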

How the results depend on the processing

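Of 191 values under other settings, 149 stayed within 1.5 times the main count or within its counting interval, and the cause of the other 42 was not tested except where stated. None moved when gaps of up to 5 kb were merged, chromosomes 6 and 8 left out or X included. The higher share lay with SRCi-only regions for DNMT1 KO and TDG KD, and with PKCi-only regions for DNMT1 control and TKO, under all 8 settings that give them. The settings share many of their regions, so their agreement is no separate evidence. The TKO order rested on 9 PKCi-only and 10 SRCi-only regions. By chromosome the TKO share was higher in SRCi-only regions on 7 and in PKCi-only regions on 6 of 17. For the serum, 2i and TKO control sides the order turned with the highest-scoring 50% of domains, and for TDG control in 4 of 8 settings. The highest-scoring setting gave 449 PKCi-only regions and 1236 SRCi-only regions, the latter with 260.2 Mb. All SRCi-only bins of the full lists made up 110 Mb, so these regions took in bins that both full lists marked. Shares of PKCi-only regions were then 16.3% serum, 3.34% 2i, 17.6% DNMT1 control, 8.02% DNMT1 KO, 30.7% TDG KD, 15.8% TKO control and 1.34% TKO, and of SRCi-only regions 11.7% serum, 4.69% 2i, 15.6% DNMT1 control, 31.0% TDG KD and 17.4% TKO control. The TDG KD shares of the classes were thus almost equal there. Asking for a 2i mark in the opposite list left 1 PKCi-only region (13 kb, 0.013 Mb) and 1 SRCi-only region (17 kb, 0.017 Mb), by construction, and shares could not be given. With a minimum of 20 kb the 2i side held 6.70% of PKCi-only and 4.56% of SRCi-only regions, and 100% of SRCi-only regions had no 2i base against PKCi. With 5 kb the serum side held 1.84% of SRCi-only regions. Counting 1 base or more raised shares by construction, for PKCi-only regions to 2.74% serum, 39.5% 2i, 38.1% DNMT1 control, 7.46% DNMT1 KO, 1.69% TDG control, 30.7% TKO control and 1.48% TKO, and for SRCi-only regions to 8.02% serum, 26.2% 2i, 24.0% DNMT1 control, 22.1% DNMT1 KO, 1.57% TDG control, 28.0% TDG KD, 22.4% TKO control and 1.15% TKO. Leaving out chromosome 11, a setting chosen after seeing the data, gave 22.9% and 14.4% TKO control. No paired analysis was possible because no condition has more than 1 library. What depth limits could not be measured from the lists.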
